A study of Rattus norvegicus with 12 samples.

Results

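The cytosolic ribosomal protein genes were examined in the striatum of rats labelled as having self-administered methamphetamine (MA). They were taken from the gene table by symbol alone: every symbol that begins with Rpl or Rps and a digit, the stalk genes Rplp0 to Rplp2, and Rpsa, without the S6 kinases (Rps6k), Rps19bp and symbols marked -ps, and with a mean of at least 10 counts over all rats. Of 95 matching symbols, 9 S6 kinases, 1 Rps19bp gene and 2 -ps symbols were left out, and 2 genes, Rpl37a with a mean of 4.67 counts and the paralog Rpl39l with a mean of 2 counts, fell under the minimum. The 81 genes that remained, out of 17337 in the table, comprised 48 of the large and 33 of the small ribosomal subunit. No measured difference between groups was used to choose them.

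The 12 libraries came from the striatum of adult male Sprague-Dawley rats of genotype WT, 1 rat per library. The labels give 16 days of MA self-administration for each rat. Rats of the MA12 group (n = 4, numbered 21, 31, 4N and 7N) were kept for 12 h after their last session, and those of the MA24 group (n = 4, numbered 9N, 14N, 15N and 16N) for 24 h. The third group is labelled non-addicted (n = 4, numbered 9, 11, 12 and 13), with neither the criterion behind that name nor the time since its last session given in the sources used here. No group analysed here is labelled as saline or as sampled without abstinence. By the labels, then, no group was free of the drug. The study describes saline and MA self-administration groups and groups at 12 h and 24 h of abstinence, but none named non-addicted. What the non-addicted rats received therefore rests on the labels alone. Since the 12 h and 24 h points fall at different hours of the day, length of abstinence and time of day cannot be told apart. What the N in a rat number stands for is not given. All MA24 rats and 2 of 4 MA12 rats carry it and no non-addicted rat does, so between the non-addicted and MA24 groups the kind of number and the group cannot be told apart.

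A ribosome is built from a small subunit, which reads the mRNA, and a large subunit, which joins the amino acids. Each protein of the particle is needed in step with the others, and nearly every cell makes their mRNAs in large amounts. Most of these mRNAs start with a C followed by a run of C and T (U in the RNA), the terminal oligopyrimidine or TOP motif. Through it the kinase complex mTORC1 and the binding protein LARP1 set how strongly the mRNAs are translated, a step that mRNA counts do not show. In neurons, some of these mRNAs are also carried into dendrites and axons.

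The start of the transcript is shown for 7 genes below, since the TOP motif is what this family is best known to share. Promoter windows from RefSeq (build GRCr8) were found for 65 of the 81 genes, and each line gives 30 bases before and 20 bases after the annotated start, 5′ to 3′ on the strand of the gene. Capitals mark the C at the annotated start and the C or T run that follows it, where the start is a C and the next 4 bases are each C or T. Rpl10, Rpl31, Rplp1, Rplp0 and Rps18 have the motif. Rpl36 is shown because it was the one member that passed the test between groups, and Rps6 because it encodes the best known substrate of the S6 kinases. Both lack the motif at the annotated start.
Rpl10 (chrX:157205820-157205869, plus strand): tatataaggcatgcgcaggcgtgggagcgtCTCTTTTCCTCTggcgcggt
Rpl31 (chr9:49143081-49143130, plus strand): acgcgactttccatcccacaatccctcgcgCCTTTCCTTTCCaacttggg
Rplp1 (chr8:71290853-71290902, minus strand): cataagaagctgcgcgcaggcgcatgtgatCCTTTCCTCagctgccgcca
Rplp0 (chr12:46718371-46718420, minus strand): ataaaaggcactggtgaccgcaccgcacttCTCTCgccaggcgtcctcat
Rps18 (chr20:4933715-4933764, plus strand): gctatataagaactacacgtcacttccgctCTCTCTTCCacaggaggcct
Rpl36 (chr9:1533750-1533799, plus strand): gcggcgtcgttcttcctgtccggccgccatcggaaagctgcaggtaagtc
Rps6 (chr5:106420521-106420570, minus strand): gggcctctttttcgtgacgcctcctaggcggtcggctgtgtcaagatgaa

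The motif at the annotated start was present in 23 of the 65 genes (35.4%), against 2.63% of 27457 rat promoters. Of 13 other genes known for TOP mRNAs that have a window, none had it at the annotated start, so the start as annotated misses known TOP genes. A run of 8 or more C or T anywhere from 40 bases before to 20 bases after the start was found in 49 of the 65 (75.4%), against 24.0% of all promoters, and in 10 of those 13 other genes (76.9%). CCGGAAG, searched on both strands of the whole window of 250 bases before to 50 after the start, occurred in 20 (30.8%) against 9.22%, and GGGCGG on both strands in 39 (60%) against 34.9%. Neither set the family apart from like sets: CCGGAAG was in 33.3% and GGGCGG in 51.9% of 54 promoters of mitochondrial ribosomal protein genes, and in 27.8% and 42.6% of 54 promoters of oxidative phosphorylation subunits. TATAAA on the strand of the gene stood in 6 (9.23%) against 9.08%, and the palindrome CACGTG in 5 (7.69%) against 6.65%. A match is a description of the letters and not a binding site, and an annotated start can lie some bases from the one used in striatum.

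Library totals ran from 17908962 to 23850284 counts, and the TMM factors, which edgeR derives from a trimmed mean to make libraries comparable, from 0.959 to 1.060. Of 14 markers of striatal projection neurons, 13 were in the table and none was at 0, with a summed level of 14823 to 18816 counts scaled to a common library size (CPM) in MA12, 17337 to 19120 CPM in MA24 and 14629 to 17694 CPM in the non-addicted rats. The tissue is a mixture, and in bulk RNA fewer cells of a type and less RNA per cell cannot be told apart.

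The ribosomal protein genes were among the well-counted genes, with a median of 5588 counts per library and 70 of the 81 at a mean of at least 1000. Rpl13a had the highest mean at 18559 counts. At the other end, 7 genes had means under 100 counts: Rplp2 (28.67), Rps9 (31.25), Rpl3l (32.17), Rps19 (52.33), Rps6 (54.17), Rps4y2 (81.83) and Rpl7a (95.67). Rpl3l is a paralog of Rpl3 known from muscle, while Rps6, Rps9, Rps19, Rpl7a and Rplp2 encode proteins of every ribosome. Ribosomal protein genes have many near-identical copies in mammalian genomes, the handling of reads that fit several places is not given, and how far this bears on these low counts was not tested. The values of those 7 genes are therefore uncertain, and their standard errors of 0.20 to 0.42 on the log2 scale were well above the median of 0.08 over the 81 genes in each comparison.

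Between 2.13% and 2.72% of all counts fell on the 81 genes. In MA12 the share was 2.37% in rat 21, 2.51% in rat 31, 2.34% in rat 4N and 2.13% in rat 7N, a mean of 2.34% ± 0.159 (SD, n = 4). In MA24 it was 2.23% in rat 9N, 2.72% in rat 14N, 2.58% in rat 15N and 2.50% in rat 16N (2.51% ± 0.208, SD, n = 4). In the non-addicted rats it was 2.53% in rat 9, 2.33% in rat 11, 2.20% in rat 12 and 2.34% in rat 13 (2.35% ± 0.137, SD, n = 4). All 3 groups overlap. MA24 rats 9N and 16N sat inside the MA12 range, and 9N lay apart from the other MA24 rats. Non-addicted rat 9 lay above the other rats of its group. The MA24 mean minus the MA12 mean was 0.170 percentage points, between the SDs of these groups. The non-addicted mean minus the MA12 mean was 0.0116 points, below both SDs, and it had the other sign without MA12 rat 7N (-0.0581), without non-addicted rat 9 (-0.0489) and with rats of plain numbers only (-0.0928). The balance of the subunits was steadier, at 1.38 to 1.46 counts on large-subunit genes for each count on small-subunit genes in every rat.

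**Figure D1:**
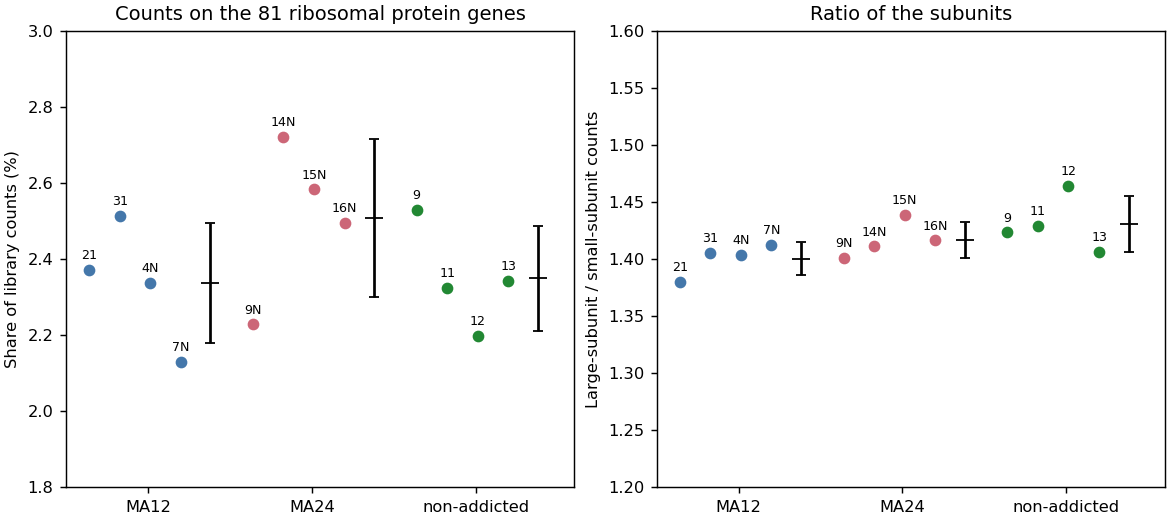
Left, the share of each library's counts that fell on the 81 ribosomal protein genes (%), by rat and group; right, the ratio of large-subunit to small-subunit counts. Points are rats with their numbers, bars give mean ± SD (n = 4), and the axes do not start at 0. On the left the 3 groups overlap, with MA24 rat 9N at 2.23% and rat 16N at 2.50%, both inside the MA12 range.

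Across rats, the members varied together. Among the 70 members with a mean of at least 1000 counts, the Pearson correlation of log2 CPM over the 12 rats had a median of 0.756 over 2415 pairs of genes, and 98.4% of the pairs were above 0. The pairs of all 4409 genes at that count had a median of 0.03. With the group means taken out, the median for the members was 0.739, so they also varied together among rats of the same group. These are descriptions with no test, since the points share their libraries and depth. Subunits of the oxidative phosphorylation complexes, another large set of particles built in fixed proportions, had a median of 0.603 (69 genes), and proteasome subunits one of 0.421 (30 genes).

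The level of a member in one rat was thus largely that of its neighbours. In MA24, 79 of the 81 members were above their own mean over the 12 rats in rat 14N, 77 in rat 15N and 61 in rat 16N, but 12 in rat 9N. Among MA12 rats, 50 were above in rat 31, 39 in rat 4N, 16 in rat 21 and 6 in rat 7N. The non-addicted rats had 68 in rat 9, 47 in rat 13, 13 in rat 11 and 4 in rat 12. The 3 groups overlap in this count, and 3 of 4 MA24 rats were high.

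Rpl38 was the member with over 1000 counts that followed the others least. Its correlation with the median of the other members over the 12 rats was 0.00. Rpl38 encodes a large-subunit protein known for a role in the translation of Hox mRNAs. It stood at 123, 127, 173 and 184 CPM in MA12 rats 21, 31, 4N and 7N, at 123, 152, 169 and 166 CPM in MA24 rats 9N, 14N, 15N and 16N, and at 117, 156, 151 and 133 CPM in non-addicted rats 9, 11, 12 and 13. The groups overlap, and rat 7N, where most members were low, had the highest Rpl38. Rpl17, whose protein lines the exit of the peptide tunnel, was at 314 CPM in MA12 rat 31 and 323 CPM in non-addicted rat 9, and at 175 to 233 CPM in the other 10 rats. Rps6, Rpl3l, Rplp2 and Rps4y2, all of them under 100 counts, were the others that followed the family least.

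**Figure D2:**
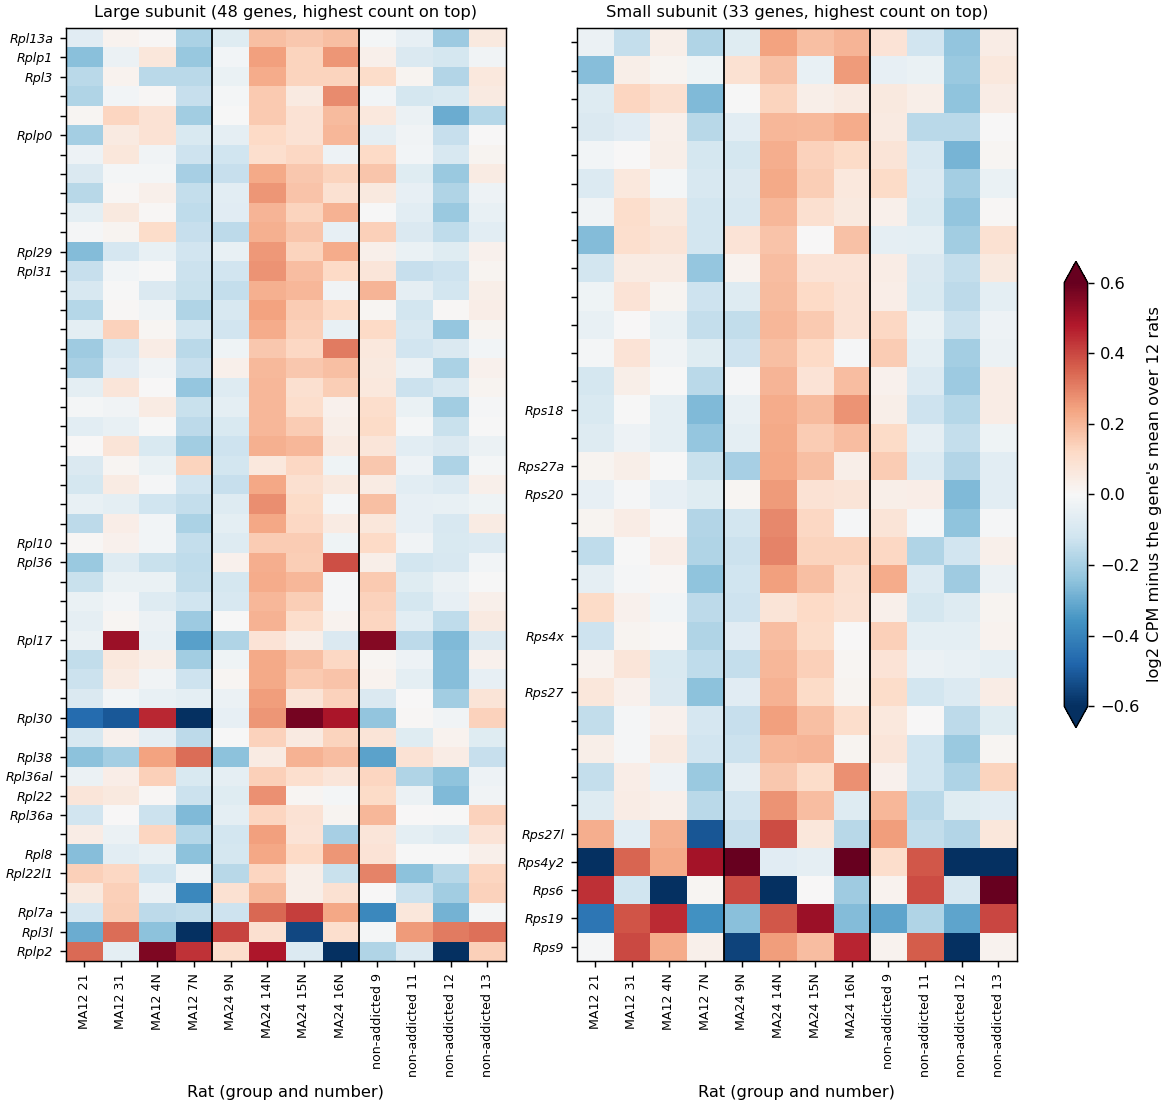
Level of each ribosomal protein gene in each rat as log2 CPM minus the gene's mean over the 12 rats (colour, limited to ±0.6), with 48 large-subunit genes on the left and 33 small-subunit genes on the right, the highest mean count on top, black lines between groups and names for the genes described in the text. Columns are mostly of 1 colour: 79 genes were above their mean in MA24 rat 14N and 4 in non-addicted rat 12.

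The comparison of MA24 with MA12 asked what differed between 24 h and 12 h of abstinence. Most members were slightly higher in MA24, and 1 of them, Rpl36, passed the test (edgeR quasi-likelihood, adjusted p under 0.05 over all 12652 genes tested). The log2 fold change was above 0 in 77 of 81 members, against 49.2% of all genes tested. Its median over the members was 0.15 (a fold of 1.11), with quartiles of 0.09 and 0.19, and that of all genes was -0.005. The 1 call among 81 members stands beside a background of 4.17% of genes called, so calls were not more frequent here. At an unadjusted p below 0.05 there were 24 members, all higher in MA24, against 22.9% of all genes, and the 4 rats of each group did not overlap in 3 members, against 14.4% of all genes.

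The large and the small subunit had similar median log2 fold changes, 0.16 (45 of 48 above 0) and 0.13 (32 of 33 above 0). The 23 genes with the TOP motif at the annotated start had a median of 0.13, from -0.09 to 0.27, and the 42 without it one of 0.15. The 4 members below 0 were Rplp2 (-0.34), Rpl17 (-0.09), Rpl22l1 (-0.06) and Rps9 (-0.05), none of which passed the test. Scaling by the total count alone moved the median of all genes to -0.06 and that of the members to 0.09, which left the distance between them at 0.15. Without rat 9N, the MA24 rat with a low share, the median of the members was 0.19. There 6 of 81 members passed the test, beside 787 of all 12647 genes tested. Leaving out any other rat gave 0 to 1 member calls and a median of 0.11 to 0.19, with 0 to 486 genes called in all. Restricted to rats whose number ends in N (4 MA24 and 2 MA12), the median was 0.17 and no member passed, nor did any of 12588 genes. At an unadjusted p below 0.05 there were 15 members and 1728 genes in all.

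Rpl36 encodes a small protein of the large subunit. It measured 211, 233, 224 and 221 CPM in MA12 rats 21, 31, 4N and 7N, against 250, 287, 272 and 321 CPM in MA24 rats 9N, 14N, 15N and 16N. Every MA24 rat was above every MA12 rat, with rat 16N the highest and rat 9N the lowest of its group. The log2 fold change was 0.35 ± 0.08 (SE), with an edgeR adjusted p of 0.0369, a rise that is below the 1.5-fold the study asks of a differentially expressed gene. Its call was lost when any rat but 9N was left out (adjusted p of 0.0605 to 0.109), and over all alternatives its adjusted p ran from 0.00273 to 0.213 while the direction stayed. It was also lost once numbers with and without N were told apart in the model (log2 fold change 0.34, adjusted p = 0.159). The same held within the rats numbered with N (0.34, adjusted p = 0.213), with the fold as large as before. In both of these fits no gene at all was called, nor was any without rat 21. Without rat 16N, 2 genes were called. The non-addicted rats 9, 11, 12 and 13 had 252, 228, 230 and 243 CPM, which overlaps with both groups.

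Rps20 was another of the members whose groups did not overlap, and it was chosen after its values were seen. Of the small subunit, it was at 224 to 235 CPM in MA12 and 238 to 281 CPM in MA24 (log2 fold change 0.15 ± 0.07 (SE), edgeR adjusted p = 0.206). It did not pass the test.

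Rpl30 had the largest log2 fold change of any member in MA24 against MA12 and also a rat that stood apart. Its protein belongs to the large subunit and is known in yeast to bind its own transcript. In MA12 it was at 112, 109 and 98.6 CPM in rats 21, 31 and 7N but at 213 CPM in rat 4N. The MA24 rats 9N, 14N, 15N and 16N had 150, 186, 231 and 218 CPM, and the non-addicted rats 9, 11, 12 and 13 had 132, 156, 153 and 171 CPM. Rat 4N alone made the MA12 and MA24 groups overlap, and without it every MA24 and non-addicted rat was above every MA12 rat. With all rats the log2 fold change of MA24 against MA12 was 0.56 ± 0.21 (SE) with an edgeR adjusted p of 0.128, and without rat 4N it was 0.88 with an adjusted p of 0.0290. No other member passed without rat 4N, where 227 of 12673 genes did.

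**Figure D3:**
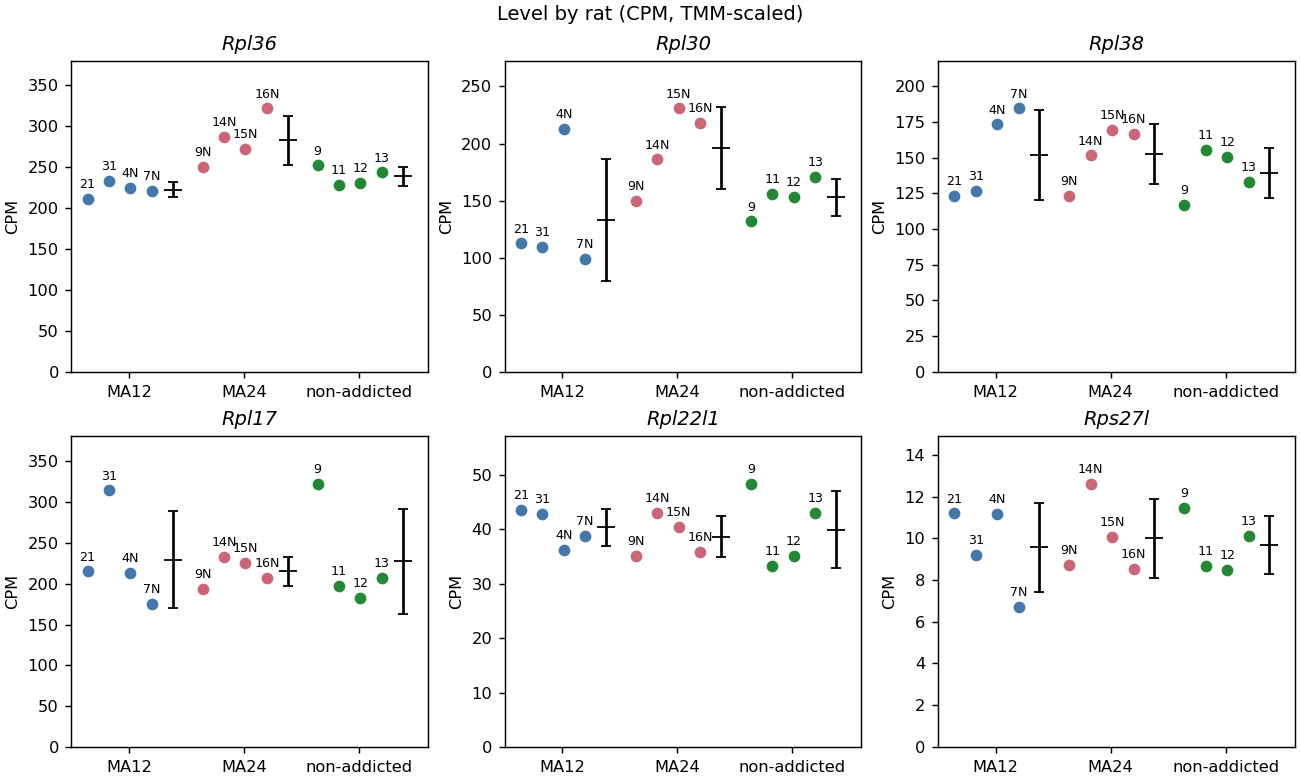
CPM (scaled by TMM factors, axes from 0) of 6 members by rat, with bars for mean ± SD (n = 4). Rpl36 was higher in each MA24 rat than in each MA12 rat, Rpl30 was high in MA12 rat 4N (213 CPM), Rpl38 and Rpl17 varied between rats within groups, and the paralogs Rpl22l1 and Rps27l overlapped in all groups.

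The stalk proteins recruit the elongation factors to the large subunit. Rplp1 was at 602, 699, 749 and 612 CPM in MA12 rats 21, 31, 4N and 7N and at 708, 848, 786 and 861 CPM in MA24 rats 9N, 14N, 15N and 16N, a log2 fold change of 0.27 ± 0.09 (SE; edgeR adjusted p = 0.102). The groups overlap through rats 4N and 9N. Rplp0, the anchor of the stalk, changed by 0.13 ± 0.08 (SE; edgeR adjusted p = 0.387), and Rplp2 by -0.34 ± 0.36 (SE) on 28.67 counts. Of the genes that encode ubiquitin joined to a ribosomal protein or a like fusion, Rps27a had 0.09 ± 0.09 (SE; edgeR adjusted p = 0.581), while Fau, which carries another symbol and is not a member, had 0.28 and did not pass either (edgeR adjusted p = 0.0684).

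Several ribosomal proteins have a paralog that can take the place of the parent in some ribosomes. Rpl22l1 changed by -0.06 ± 0.09 (SE) and its parent Rpl22 by 0.05 ± 0.09 in MA24 against MA12. Rps27l, a target of p53, changed by 0.06 ± 0.19 (SE) and Rps27 by 0.13 ± 0.09, and Rpl36al by 0.05 ± 0.08 beside 0.17 ± 0.08 for Rpl36a. None of these genes passed the test. Rps4y2, a copy of the small-subunit gene Rps4x, ranged from 1.30 to 7.65 CPM: 1.77, 4.51, 4.14 and 5.02 CPM in MA12 rats 21, 31, 4N and 7N, 6.15, 3.35, 3.39 and 7.65 CPM in MA24 rats 9N, 14N, 15N and 16N, and 3.80, 4.59, 1.72 and 1.30 CPM in non-addicted rats 9, 11, 12 and 13. The groups overlap, with means of 3.86 CPM in MA12, 5.14 CPM in MA24 and 2.85 CPM in the non-addicted rats. The log2 fold change of the non-addicted rats against MA24, -0.85 ± 0.39 (SE; edgeR adjusted p = 0.279), was the lowest of any member in that comparison. Rps4x itself kept to 188 to 242 CPM. Rpl3l, at 0.847 to 1.98 CPM, and Rps6, at 1.22 to 4.16 CPM, overlapped in all groups.

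**Figure D4:**
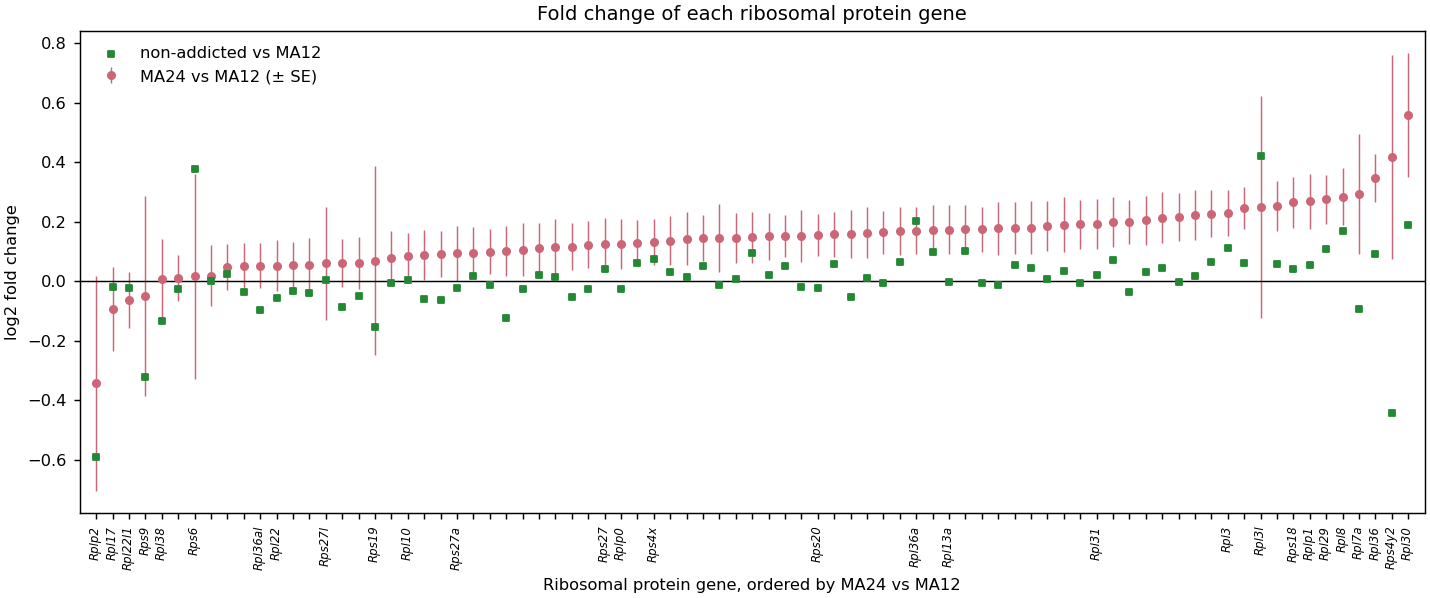
Log2 fold change of each of the 81 members, ordered by MA24 against MA12 (round points, bars ± SE), with non-addicted against MA12 as squares and names for the genes described in the text. In the first comparison 77 genes were above 0 with a median of 0.15, and in the second, which shares the MA12 rats, 44 were above 0 with a median of 0.01. Wide bars belong to the genes with under 100 counts.

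The comparison of the non-addicted rats with MA12 gave values close to 0 for the family as a whole. The median log2 fold change was 0.01 (all genes -0.01), and 44 of 81 members were above 0, against 48.0% of all genes tested. No member passed the test, where 5 of 12657 genes (0.0395%) did. DESeq2, which called 245 of the 12657, also called none of the 81 members. Nor did the likelihood ratio test of edgeR, which called 223. The 2 members at an unadjusted p below 0.05, against 12.0% of all genes, were Rpl36a (0.20 ± 0.08 (SE), edgeR adjusted p = 0.323) and Rpl8 (0.17 ± 0.08 (SE), edgeR adjusted p = 0.411). Rpl8 was the 1 member whose groups did not overlap, against 6.65% of all genes: 38.4, 44.0, 44.5 and 38.7 CPM in MA12 rats 21, 31, 4N and 7N and 48.6, 45.8, 45.9 and 47.0 CPM in non-addicted rats 9, 11, 12 and 13. Its protein sits beside the catalytic centre of the large subunit, and MA12 rats 31 and 4N came close to the lowest non-addicted rats.

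At the extremes, Rpl3l (0.42 ± 0.33 (SE)) and Rps6 (0.38 ± 0.33 (SE)) were at the upper end and Rplp2 (-0.59 ± 0.35 (SE)) and Rps4y2 (-0.44 ± 0.41 (SE)) at the lower. All 4 had means under 100 counts, and their values lie within about 2 SE of 0. Among the members with over 1000 counts, Rpl38 had the lowest value, -0.13 ± 0.13 (SE), and Rpl36a the highest.

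The comparison of the non-addicted rats with MA24 shares its rats with the comparisons above. Most members were lower in the non-addicted rats: the median log2 fold change was -0.13 (a fold of 0.914, all genes 0.00), and 5 of 81 members were above 0, against 50.5% of all genes tested. No member passed the test, and neither did any of the 12640 genes (0.00%). At an unadjusted p below 0.05 there were 15 members, all lower, against 17.6% of all genes, and no member had groups that did not overlap, against 9.39% of all genes. DESeq2, which called 444 of the 12640 genes here, called none of the 81 members. Rpl36 (-0.25 ± 0.08 (SE), edgeR adjusted p = 0.161) and Rpl30 (-0.36 ± 0.12 (SE), edgeR adjusted p = 0.165) had the lowest p-values. Rpl36a, Rpl22l1, Rpl17, Rpl3l and Rps6 were the 5 members above 0.

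Among the other well-counted genes, the log2 fold change in MA24 against MA12 fell with the genomic length of the gene. The rule for the members did not use this property. In RefSeq (GRCr8), 80 of the 81 members have a span from first to last base of the gene, with a median of 3.13 kb against 24.0 kb for the genes tested, and 65 members span under 5 kb. Other genes that are short and well counted had similar values: 395 non-member genes under 5 kb with a mean of at least 1000 counts had a median log2 fold change of 0.14, and 332 of them were above 0. The 3678 longer genes at that count had a median of 0.01. By length, the median of the other genes was 0.16 under 2 kb (79 genes), 0.13 from 2 to 5 kb, 0.11 from 5 to 10 kb, 0.07 from 10 to 20 kb, -0.002 from 20 to 50 kb, -0.06 from 50 to 100 kb and -0.13 from 100 kb (602 genes). The 13 members under 2 kb had a median of 0.16 and the 52 from 2 to 5 kb one of 0.15. The 10 members from 5 to 10 kb had a median of 0.13 and the 4 from 10 to 20 kb one of 0.14, and Rpl29, the single member annotated with over 100 kb, had 0.28. Under 5 kb, where most members lie, their medians were thus close to those of other well-counted genes, while over the few longer members the median did not fall with length as it did in the other genes. The difference between members and other genes was not tested.

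In the non-addicted rats against MA24 the same short genes had a median of -0.12, beside -0.13 for the members, and against MA12 one of 0.02, beside 0.01. When the same restriction to N numbers was made, the members' median in MA24 against MA12 was 0.17 and that of the other short genes 0.09. The part of gene length in the members' shift was not tested. The grouping by length was chosen after the values were seen.

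**Figure D5:**
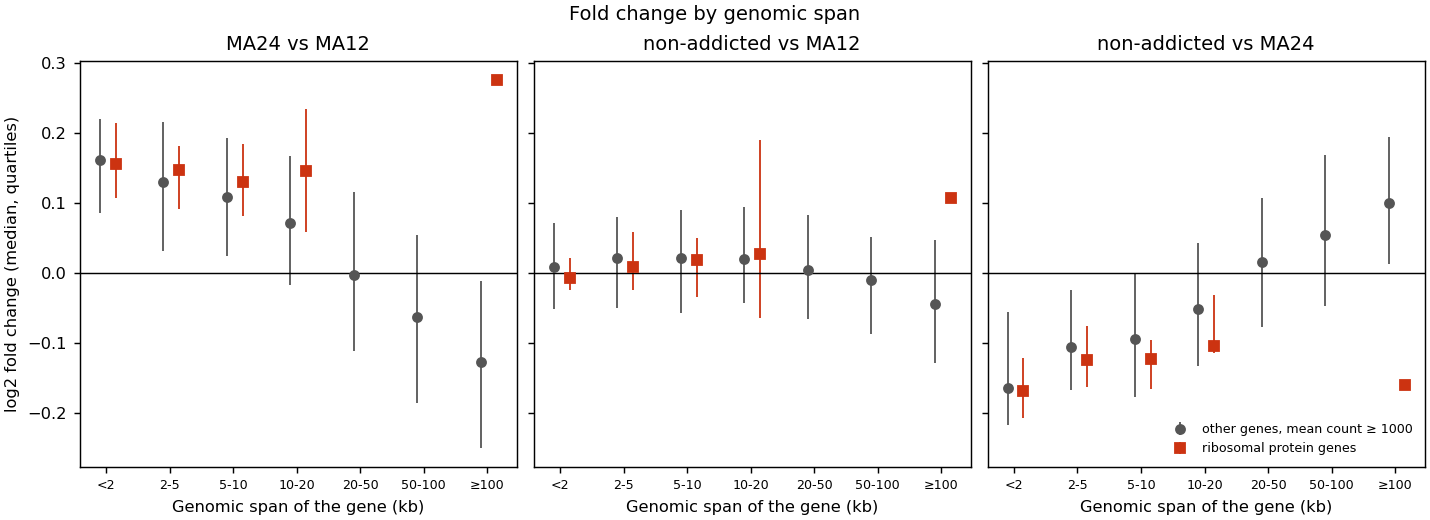
Median log2 fold change with quartiles (bars) by genomic span of the gene in kb, in the 3 comparisons, for other genes with a mean of at least 1000 counts (circles) and for the ribosomal protein genes (squares). In MA24 against MA12 the circles fall from 0.16 under 2 kb to -0.13 from 100 kb and the squares lie at 0.13 to 0.16 up to 20 kb; the single member from 100 kb is Rpl29, whose annotated span is long.

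The genes around the ribosome were counted from lists by role. Of 19 other mRNAs known to carry a TOP motif, such as those of elongation factors and poly-A binding protein, 17 were above 0 in MA24 against MA12 with a median of 0.13 and none called. Eef2, the factor that moves the ribosome along, had 0.26 ± 0.10 (SE; edgeR adjusted p = 0.137), and Eef1a1, which delivers the tRNAs, 0.10 ± 0.08 (SE; edgeR adjusted p = 0.531). Among 28 initiation factors the median was 0.02 with none called, and among 41 genes for ribosome assembly and the polymerase of ribosomal RNA it was 0.05 with none called.

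Of 23 genes for mTORC1 signalling and TOP control, 1 was called higher and 1 lower in MA24, against 4.17% of all genes called. The median log2 fold change of the 23 was -0.09, with 10 above 0. Rps6kb2, one of the kinases that phosphorylate the protein of Rps6, was at 29.0, 29.4, 29.1 and 33.7 CPM in MA12 rats 21, 31, 4N and 7N and at 39.8, 59.1, 43.8 and 50.6 CPM in MA24 rats 9N, 14N, 15N and 16N. The groups did not overlap, and the log2 fold change was 0.68 ± 0.12 (SE; edgeR adjusted p = 0.0179). Its call was lost without rat 21 (adjusted p = 0.0612), without rat 16N (0.0551), with N numbers as a term (0.62, adjusted p = 0.121) and within the rats numbered with N (0.63, adjusted p = 0.178). Sesn3, a sestrin that holds mTORC1 back, was at 104, 105, 100 and 76.8 CPM in MA12 and at 80.8, 51.7, 70.2 and 63.1 CPM in MA24, in the same order of rats, with overlap through rats 7N and 9N (-0.54 ± 0.13 (SE); edgeR adjusted p = 0.0395). The Sesn3 call held when leaving out rat 7N or 9N, was lost without each of the other 6 rats, and was lost with N numbers as a term (-0.41, adjusted p = 0.235) and within the rats numbered with N (-0.41, adjusted p = 0.297). With N numbers as a term, within the rats numbered with N and without rat 21, no gene at all was called. In the comparisons with the non-addicted rats none of these lists had a call.

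Other particles of many subunits were set beside the family. The 77 subunits of oxidative phosphorylation that were tested had a median log2 fold change of 0.13 in MA24 against MA12, 73 of them above 0 and none called. The 66 proteins of the mitochondrial ribosome had 0.08, with Mrpl38 called higher (0.34 ± 0.09 (SE); edgeR adjusted p = 0.0465), and 38 proteasome subunits had 0.02. The Mrpl38 call held when leaving out rat 9N but no other rat, and it was lost with total-count scaling (adjusted p = 0.0650), with N numbers as a term (0.263) and within the rats numbered with N (0.323). No gene at all was called with N numbers as a term or within the rats numbered with N. In the non-addicted rats against MA24 the medians were -0.12, -0.07 and 0.00 in the same order, and against MA12 0.00, -0.02 and 0.02.

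Markers of other cell types in the dissection are given beside the family. The summed level of 9 oligodendrocyte markers was 12779 to 22642 CPM in MA12, 18867 to 22251 CPM in MA24 and 12213 to 18092 CPM in the non-addicted rats, with none at 0. Microglial markers (9 of 9, none at 0) summed to 480 to 535 CPM, 485 to 597 CPM and 388 to 522 CPM in that order, and 8 of 10 endothelial markers in the table to 534 to 682 CPM, 631 to 693 CPM and 411 to 583 CPM. In MA24 against MA12 the mural cell markers Rgs5 and Abcc9 were called lower (-0.72 and -0.73), as were Prkcd (-0.95), marking thalamus, and the striatal peptide gene Pdyn (-0.57). Of 13 striatal projection neuron markers tested, 5 were above 0, with a median of -0.07 and a range of -0.57 to 0.33. Of 8 mural and fibroblast markers tested, 2 were above 0 (median -0.21), and of 3 thalamus markers, 0 (median -0.25). None was called among oligodendrocyte markers (7 of 9 above 0, median 0.16), microglial markers (7 of 9, 0.07) or endothelial markers (5 of 8, 0.12). Astrocyte markers (4 of 8 above 0, median -0.01) and ependymal and choroid markers (1 of 8, -0.40) had no call either. All 4 calls were lost with N numbers as a term (adjusted p of 0.222, 0.266, 0.268 and 0.0593 for Rgs5, Abcc9, Prkcd and Pdyn) and within the rats numbered with N (0.259, 0.317, 0.315 and 0.0723), with the direction kept. No gene at all was called in either of these N fits. When each rat was left out in turn, Pdyn kept its call in 6 of 8 fits, Prkcd in 3, Rgs5 in 2 and Abcc9 in 1. Over the whole list of 9 mural and fibroblast markers, 1 of them at 0, the sums were 128 to 207 CPM in MA12, 119 to 147 CPM in MA24 and 92.5 to 118 CPM in the non-addicted rats, and 9 ependymal and choroid markers (none at 0) summed to 38.3 to 102 CPM, 39.6 to 67.6 CPM and 57.6 to 140 CPM. In the non-addicted rats against MA24, no oligodendrocyte (median -0.35), microglial (-0.18) or endothelial marker (-0.33) was above 0. The same held for mural and fibroblast markers (-0.35), while all 9 ependymal and choroid markers were above 0 (1.08). Of 8 astrocyte markers 4 were above 0 there (-0.03), and no marker was called. The part of these cell types in the shift of the ribosomal protein genes was not tested.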

How the data were processed

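RNA was extracted from whole striatum, and poly-A libraries were sequenced as pairs. The authors deposited raw counts per gene for 12 rats. Per the methods and the submitters' processing notes, reads were trimmed with Cutadapt 1.18, aligned with STAR 2.7.0e to rn6 and counted with featureCounts, and HTSeq 0.12.4 is listed as well. Strand and multi-mapping settings are not given in the sources used here, so overlapping, antisense and near-identical genes may share reads. No column was left unused. The raw counts were tested pair by pair of groups with edgeR 4.0.16 (R 4.3.3): TMM factors, genes with a mean over 4 counts in the 8 libraries, glmQLFit and glmQLFTest, and Benjamini-Hochberg adjustment over all genes tested. A call is an adjusted p below 0.05. All 81 members passed the low-count filter in each comparison. The 15% variance filter of the study removes steady genes and was run as an alternative, as were DESeq2 1.42.0, other scalings, filters, a covariate and leaving out each rat. CPM values use TMM-scaled library sizes, and log2 CPM a prior count of 2. The labels give 1 rat per library and 1 batch date, so p-values compare rats. No number in the labels pairs rats across groups. Having 4 rats per group limits the precision. By rule, 29 members were named. They are those called, the 5 highest and 5 lowest by log2 fold change in each comparison, and the stalk genes. Also in the rule were paralogs with their parents, Rps6, Rpsa, Rpl10, Rps27a and Rps4x, and the highest and lowest by count. Called genes of the other lists were named as well. Rpl29, Rpl31, Rps18 and Rps20 were named outside the rule and are not among the 29. The members and lists were chosen with earlier results of these data known. Some members are not reported by name here. The fitting script was checked on simulated data.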

Additional observations from a re-analysis of the deposited data

Results flagged for a closer look

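A rat stood apart from the other 3 of its group in 3 of 93 sets of 4 rats examined (the 29 named members, the share of counts and the ratio of large-subunit to small-subunit counts, each in 3 groups), by Dixon's ratio of the gap to the range, taken on log2 CPM for genes, above its 95% critical value, where chance gives about 4.65. Rpl13a, the member with the highest count, was at 841 CPM in MA24 rat 9N and at 989 to 1004 CPM in the other MA24 rats (ratio 0.917 on log2 CPM), and rat 9N was low in most members. Rpl3 was at 609 CPM in MA12 rat 31 and at 535 to 536 CPM in the other MA12 rats (ratio 0.983 on log2 CPM). Rpl30 was at 213 CPM in MA12 rat 4N and at 98.6 to 112 CPM in the other MA12 rats (ratio 0.82904 on log2 CPM, just above the critical value).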

How the results depend on the processing

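The median log2 fold change of the members moved by less than the spread between rats in every alternative run. Leaving out each rat gave 0.11 to 0.19 in MA24 against MA12, -0.18 to -0.08 for the non-addicted rats against MA24, and -0.03 to 0.05, on both sides of 0, against MA12. Counting only the 70 members with a mean of at least 1000 counts, an alternative chosen after seeing the data, gave 0.15, -0.13 and 0.01. The difference in the share of counts was 0.0983 to 0.263 percentage points in MA24 against MA12 when leaving out each rat, and 0.274 with rats numbered with N only, also chosen after seeing the data. Of the counts of calls, those below left 1.5 times the value reported, and the cause was not tested. In MA24 against MA12, the 1 member called became 8 with DESeq2, 3 with the likelihood ratio test, 2 with all 3 groups in the fit, 0 (15 at an unadjusted p below 0.05) with the kind of rat number as covariate and 0 (15) with rats numbered with N only, and 0 to 6 when leaving out each rat (0 without 21, 31, 7N, 14N, 15N or 16N, 6 without 9N). The 528 genes called in all became 1278 with DESeq2, 1137 with the likelihood ratio test, 0 (1893 at an unadjusted p below 0.05) with the covariate, 0 (1728) with rats numbered with N only, and 0 (2213, without rat 21) to 787 when leaving out each rat, with 2 without rat 16N. For the non-addicted rats against MA12, 5 genes became 245 with DESeq2, 223 with the likelihood ratio test, 13 with no filter, 11 with the variance filter, 17 with all 3 groups in the fit, 0 (1241 at an unadjusted p below 0.05) with the covariate, 1 with rats numbered without N only, and 0 to 47 when leaving out each rat. Against MA24, 0 genes (2229 at an unadjusted p below 0.05) became 1 by total count only, 444 with DESeq2, 383 with the likelihood ratio test, 13 with no filter, 18 with the variance filter, 2 with all 3 groups in the fit, and 0 to 160 when leaving out each rat. Rpl38 in the non-addicted rats against MA12, at -0.13, reversed to 0.14 with the covariate and 0.16 with rats numbered without N only; it was called in none of these.

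No paired analysis was possible because the groups compared share fewer than 2 rat numbers, even when rat 9N is read as number 9. With 4 rats per group, the median standard error of a member was 0.08 on the log2 scale. In MA24 against MA12, Rpl29 and Rpl36 passed with all 3 groups in the fit, where 720 of 12652 genes passed. Both were also among those that passed with the likelihood ratio test.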

Other observations

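Outside the family, the genes whose log2 CPM over the 12 rats followed the median of the members most closely were found among 4339 other genes with a mean of at least 1000 counts and are named after their values were seen, with no test. Pfdn5, a prefoldin subunit that helps fold new actin and tubulin, had a Pearson correlation of 0.943 with it, Aldh9a1, an aldehyde dehydrogenase, 0.904, and Eef1g, a subunit of an elongation factor complex, 0.901. The points share libraries and depth, and the closest of so many candidates are high by selection.

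The within-group SD of log2 CPM had a median of 0.114 over the 70 members with a mean of at least 1000 counts and of 0.115 over all 4409 genes at that count, so single members were no steadier between rats than other genes of their count range.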
